A study of Homo sapiens with 6 samples.

Results

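The cell cycle and DNA replication genes described here are 60 listed genes, of 62348 identifiers in the deposited count tables, and were chosen by name: 44 genes of G1/S control and DNA replication and 16 genes of G2/M and mitosis. The choice was made with earlier results of these data known. Each symbol matched 1 Ensembl identifier. Their messenger RNA was measured in HEK-293T cells, an embryonic kidney line of human origin with the SV40 large T antigen, in 3 libraries labelled C17orf80 knockout (CRISPR/Cas9 with a guide RNA against C17orf80) and 3 libraries labelled WT (a non-targeting guide RNA). The medium was DMEM with 10% serum for all cells, and puromycin at 3 μg/ml was used to select monoclonal cells of the knockout line. How many clones were used is not given in the labels, so a difference between clones and an effect of the guide cannot be told apart. Nor do the labels say whether libraries of 1 group are separate cultures, so p-values reflect only how far these libraries spread, and that spread may be technical.

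DNA replication starts at origins on which the MCM helicase is loaded in G1 by CDC6 and CDT1. CDC45 and the GINS complex then turn the helicase on, and primase, polymerases and the PCNA sliding clamp copy the strands. Cyclin D and cyclin E kinases release E2F factors from RB proteins and so switch on many of these genes, while genes of mitosis peak later, in G2, with cyclin B and CDK1. Large T antigen binds the RB family and frees E2F. In bulk RNA a shift in the share of cells in a cell cycle phase and a change of RNA per cell cannot be told apart.

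Gene counts per library ranged from 14982340 to 16278091, and a tested member had 99 to 17240 counts in a library. Levels are given in CPM, gene counts scaled to a common library size with the TMM factors of edgeR. After ± stands the SD (n = 3 libraries) for a level and the SE for a log2 fold change, which is that of the libraries labelled knockout over WT. C17orf80 itself (chromosome 17, positions 73232433 to 73248959 on GRCh38) stood at 56.4, 42.4 and 42.0 CPM in replicates 1 to 3 labelled knockout, against 25.8, 26.8 and 29.2 CPM in WT replicates 1 to 3 (log2 fold change 0.78 ± 0.17, edgeR adjusted p = 0.0232). Its RNA was higher under the knockout label, opposite to a loss of the transcript, so the label is kept only as a name. Where the guide cuts is not stated in the labels, and the summed reads of the gene leave its reading frame untested. Replicate 1 labelled knockout stood apart from replicates 2 and 3: its correlation with them across genes was 0.932 and 0.945, against 0.987 between replicates 2 and 3 and 0.988 for each pair of WT libraries, and 11.9% of its gene counts were mitochondrial, against 4.53% to 5.00% in the other 5 libraries. Reads in no annotated feature were 15.9% in replicate 1 labelled knockout, against 8.75% to 10.8% in the other 5, and ambiguous reads 9.74%, against 11.6% to 12.5%; the part of these shares in the results was not tested. Of 8 genes common in HEK lines, PAX2, NEFL, NEFM, CDH2, VIM and KRT18 were at 1 CPM or more in each library, INA only in the libraries labelled knockout and LHX1 in none. Of 8 markers of other cell types COL1A1 and CDH1 were at 1 CPM or more in 6 libraries and EPCAM in 5, ALB, PECAM1 and DCN were below it, and PTPRC and KRT5 had 0 counts throughout.

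Over all 6 libraries 7 of the 59 tested members rose and 5 fell. Those that rose were the G1 cyclins CCND1 and CCND2, E2F3, the ribonucleotide reductase subunit RRM2, the S/G2 cyclin CCNA2, the chromosomal passenger BIRC5 and the spindle checkpoint gene MAD2L1. Those that fell were all parts of the replication machinery: MCM4, CDC45, GINS4, POLD1 and RFC4. A gene is called changed at an edgeR quasi-likelihood adjusted p under 0.05, with Benjamini-Hochberg adjustment over 17452 genes, and of all tested genes 15.1% were called, 8.64% higher and 6.5% lower. The members' share of calls, 12 of 59, was 20.3%. The remaining member, E2F2, had 1 count in each of replicates 2 and 3 labelled knockout and 0 counts in the other 4 libraries, was not tested, and is given no fold.

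**Figure D1:**
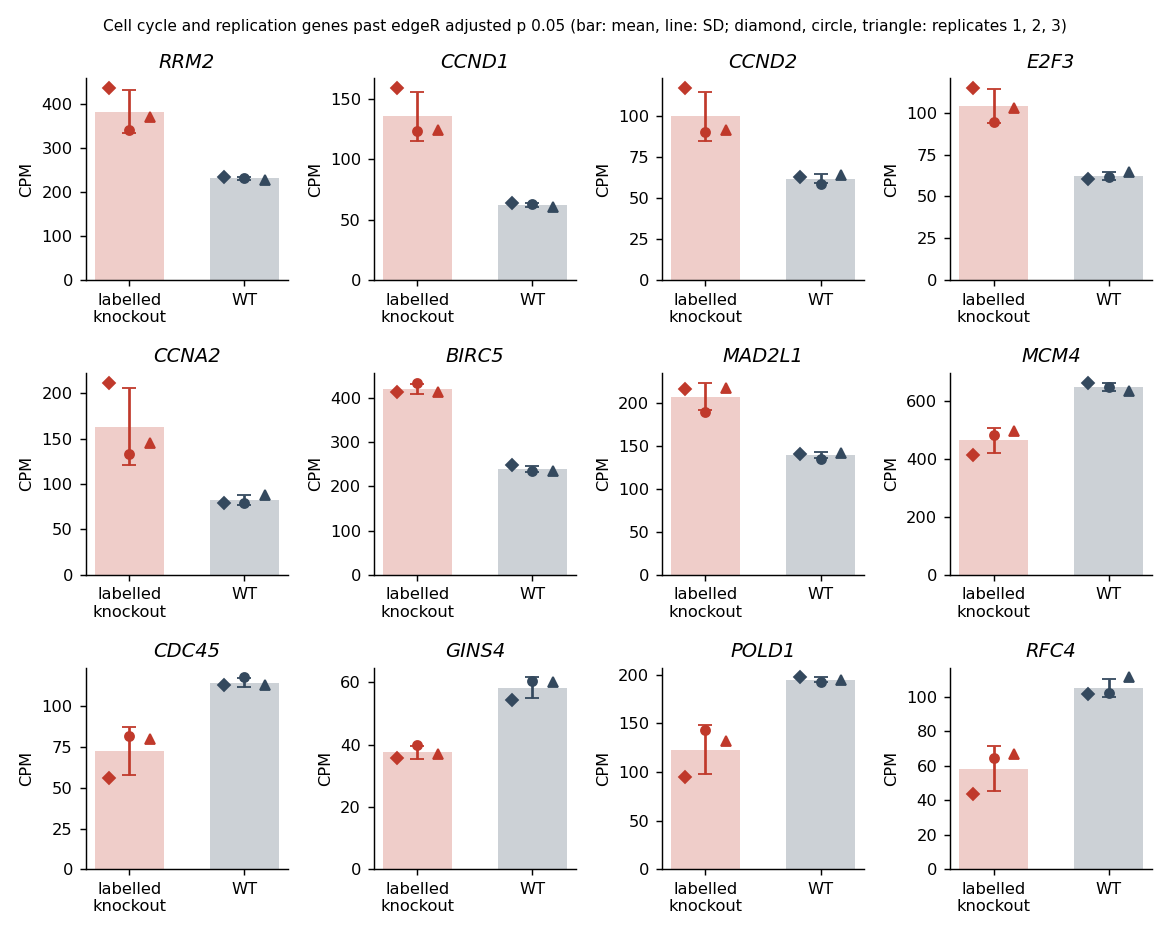
Level (CPM) of each of the 12 called genes in the libraries labelled knockout (red, left) and in WT (dark blue, right), with bars at the mean, lines at ± SD over 3 libraries and a symbol for each replicate number. In each panel the groups do not overlap, and replicate 1 labelled knockout (diamond) lies farthest from WT in all panels except those of BIRC5 and MAD2L1.

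The calls and medians of each class are given here without a test of the difference between the classes. Of 43 tested G1/S and replication genes 4 rose, 5 fell and 34 did not pass, with a median log2 fold change of -0.18. Of 16 G2/M and mitotic genes 3 rose, 0 fell and 13 did not pass, with a median of 0.27, against 0.0055 over all tested genes. Before adjustment edgeR gave 4 higher and 0 lower mitotic genes (p under 0.05), against 3175 and 2621 of all 17452 tested genes. After adjustment DESeq2 gave 0 lower mitotic genes, against 1638 of 35856 genes fitted. DESeq2 called 7 replication genes lower, with MCM5 and RFC2 (adjusted p = 0.0334 and 0.0454) beside the 5. With library totals in place of TMM 1 replication gene, GINS4, was called lower, and MCM4, CDC45, POLD1 and RFC4 had edgeR adjusted p from 0.0503 to 0.0779. Each library labelled knockout lay above each WT library for 8 replication and 9 mitotic genes, and below each for 18 and 0; of all tested genes 23.5% lay above and 24.1% below in this way. In the further genes of the same 2 classes, described at the end, 2 replication genes rose and 1 fell at a median of -0.054, and 2 mitotic genes rose and 3 fell at a median of 0.085.

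The contrast was widest in replicate 1 labelled knockout. Taken library by library, as the log2 ratio to the WT mean, the median replication gene was at -0.42, -0.066 and -0.13 in replicates 1 to 3 labelled knockout, against 0.0044, -0.0043 and 0.00010 in WT replicates 1 to 3. The median mitotic gene was at 0.65, 0.16 and 0.20 in the libraries labelled knockout, against 0.00059, -0.019 and 0.020 in WT. Replicates 2 and 3 labelled knockout thus lay on the same side of WT as replicate 1 in both classes, at a smaller distance. Over all genes with counts in each library the medians were -0.036, -0.0043 and -0.013 in the libraries labelled knockout.

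**Figure D2:**
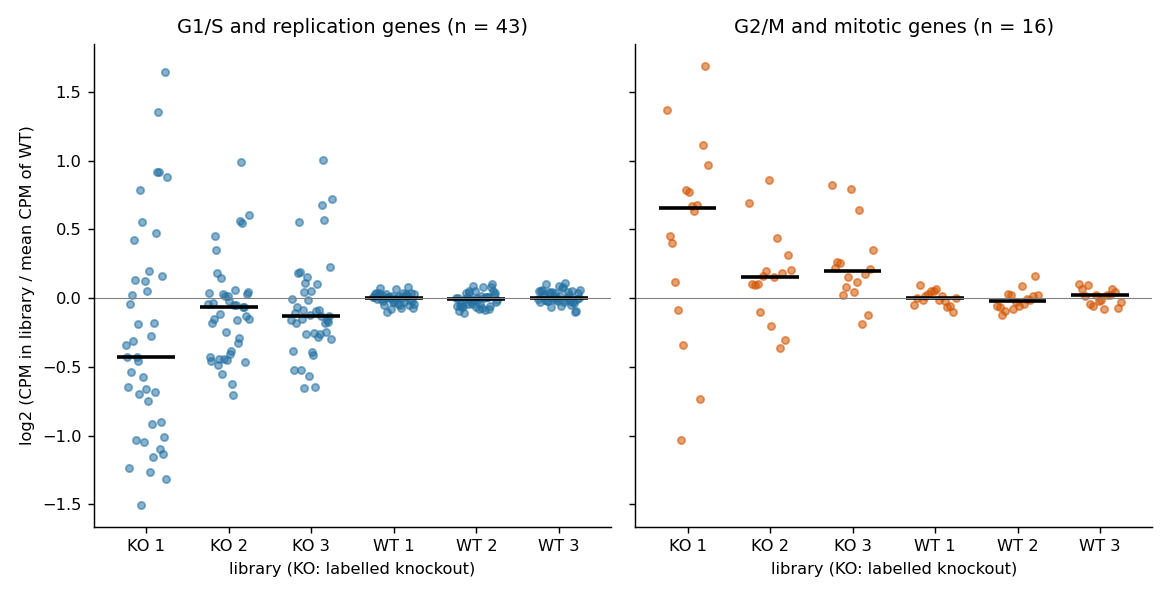
Each point is 1 gene in 1 library, as log2 of its CPM over the WT mean CPM; black lines are medians, the left panel holds 43 G1/S and replication genes and the right panel 16 G2/M and mitotic genes. The replication median is below 0 and the mitotic median above 0 in all 3 libraries labelled knockout, with the widest scatter in replicate 1.

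Without replicate 1 labelled knockout 7 replication genes were called higher and 14 lower, and 8 mitotic genes higher and 2 lower. In that fit 22.3% of all 18133 tested genes were called higher and 21.7% lower, and the counts are to be read against those shares. All 12 genes called over 6 libraries kept their call and direction in it. Without replicate 3 labelled knockout 3 of the 12 kept their call (CCND1, BIRC5 and CCNA2), and without WT replicate 1, 2 or 3 only CCND1 did. The direction of all 12 held in these 4 fits too, as groups that do not overlap all but fix it beforehand. Called without replicate 1 labelled knockout and not by edgeR over all 6 libraries with TMM and the filter were CDT1, GMNN, MCM10, CCNB1, CDK1, PLK1, MKI67 and TOP2A, higher, and MCM5, GINS1, POLA2, RFC1, RFC2, RFC3, RPA2, RRM1, E2F1, TTK and CENPE, lower. The sign of the log2 fold change turned in that fit for MCM3, POLE, PCNA, FEN1, RRM1, AURKB, BUB1, TTK, CENPA and CENPE. The class medians without replicate 1 labelled knockout were -0.11 for replication and 0.19 for mitosis.

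More replication than mitotic members carried an E2F core in their promoter, and more mitotic than replication members a CHR. Sites of E2F are typical of G1/S promoters, while the CHR element, bound by the MuvB complexes, and the CCAAT box, bound by NF-Y, are typical of G2/M promoters. Windows from 250 bases before to 50 after each RefSeq start (GRCh38.p14) were found for 49 of the 60 members, 36 replication and 13 mitotic genes, and were searched on both strands. The E2F core was taken as TTCCCGC, or TTCGCGC, or TTGCCGC, or TTGGCGC, the CHR as TTTGAA or TTCGAA, and the third motif as CCAAT. No motif lies whole inside another, but ATTGG, the CCAAT box read on the other strand, can share letters with TTGGCGC. A gene with several starts counted as a match if any window matched, and members had a mean of 1.36 starts (replication) and 1.15 starts (mitosis), against 1.46 for tested genes.

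An E2F core was found for 75% of replication genes (27 of 36) and 30.8% of mitotic genes (4 of 13), against 24.5% of 11558 tested genes with a window. A CHR was found for 8.33% of replication genes (3 of 36) and 69.2% of mitotic genes (9 of 13), against 15.4% of tested genes. CCAAT was found for 58.3% and 84.6%, against 42.8% of tested genes. A match is a description of the letters and not a bound site, and base composition was not matched.

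The called genes with a window are shown upstream of their first listed start, in lower case with the matches to the 3 motifs in capitals, so that their motifs can be read beside their directions. No window was found for the called genes CCND1, CCND2, BIRC5, MCM4 and GINS4. Each run is the last 200 bases before the start, 5′ to 3′ on the gene's own strand, from RefSeq: RRM2 (chr2:10122539-10122738, plus strand), E2F3 (chr6:20401679-20401878, plus strand), CCNA2 (chr4:121823884-121824083, minus strand) and MAD2L1 (chr4:120066849-120067048, minus strand), which rose, and CDC45 (chr22:19479720-19479919, plus strand), POLD1 (chr19:50384123-50384322, plus strand) and RFC4 (chr3:186806483-186806682, minus strand), which fell.
RRM2: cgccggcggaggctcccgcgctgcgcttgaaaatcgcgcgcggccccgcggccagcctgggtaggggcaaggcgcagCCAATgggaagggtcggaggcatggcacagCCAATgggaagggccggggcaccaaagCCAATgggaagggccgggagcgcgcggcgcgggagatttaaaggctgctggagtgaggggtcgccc
E2F3: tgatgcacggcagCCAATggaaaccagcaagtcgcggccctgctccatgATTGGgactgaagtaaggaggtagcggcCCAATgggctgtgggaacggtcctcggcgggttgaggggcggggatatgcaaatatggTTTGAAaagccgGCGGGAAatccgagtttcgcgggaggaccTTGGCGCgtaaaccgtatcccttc
CCNA2: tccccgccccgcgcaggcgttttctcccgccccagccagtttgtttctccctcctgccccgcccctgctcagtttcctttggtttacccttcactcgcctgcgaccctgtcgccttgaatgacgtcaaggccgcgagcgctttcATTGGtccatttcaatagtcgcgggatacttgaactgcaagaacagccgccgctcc
MAD2L1: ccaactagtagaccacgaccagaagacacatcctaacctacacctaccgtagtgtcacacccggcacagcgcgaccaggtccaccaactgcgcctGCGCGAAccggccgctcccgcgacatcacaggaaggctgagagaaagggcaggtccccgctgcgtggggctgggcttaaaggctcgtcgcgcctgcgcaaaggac
CDC45: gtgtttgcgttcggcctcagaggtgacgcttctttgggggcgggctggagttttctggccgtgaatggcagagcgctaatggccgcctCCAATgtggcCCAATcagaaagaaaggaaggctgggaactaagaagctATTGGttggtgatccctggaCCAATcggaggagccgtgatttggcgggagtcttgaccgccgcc
POLD1: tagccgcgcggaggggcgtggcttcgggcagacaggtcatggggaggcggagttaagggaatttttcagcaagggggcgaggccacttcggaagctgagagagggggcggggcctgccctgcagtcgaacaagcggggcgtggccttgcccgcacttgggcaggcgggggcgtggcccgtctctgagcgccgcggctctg
RFC4: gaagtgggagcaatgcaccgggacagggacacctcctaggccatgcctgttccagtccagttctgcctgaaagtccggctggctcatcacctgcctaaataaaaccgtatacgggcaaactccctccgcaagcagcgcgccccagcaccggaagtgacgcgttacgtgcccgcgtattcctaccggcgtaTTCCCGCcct
RRM2 shows 3 CCAAT boxes, CDC45 shows 4 and CCNA2 shows 1, at -56 from the start. RRM2 has 2 listed starts, and an E2F core was found in its other window, which is not shown. The first listed start is not always the most upstream. The CDC45 run lies inside the annotated gene, which begins at position 19479466. Most of the RRM2 run lies after the annotated start of that gene, at 10122568. E2F3 shows E2F cores at -53 and -24, a CHR at -65 and 3 CCAAT boxes in the run printed. RFC4 holds an E2F core at -10, MAD2L1 one at -105, and POLD1 none of the motifs. CCAAT boxes and E2F cores thus stand in genes that rose and in genes that fell. A CHR was found for 2 of the 4 shown genes that rose and 0 of the 3 that fell, against 15.4% of tested genes. The 2 were E2F3 and MAD2L1, and the CHR of MAD2L1 lies 25 bases after the start, outside the run printed. CHR forms other than TTTGAA and TTCGAA were not searched.

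Of the origin licensing genes, which load the helicase ring, 0 of 9 rose, 1 fell and 8 did not pass. The counts of this and the later role groups are to be read against the 8.64% higher and 6.5% lower of all tested genes. MCM4, a subunit of the MCM2-7 ring, stood at 414, 481 and 496 CPM in replicates 1 to 3 labelled knockout, against 663, 647 and 635 CPM in WT replicates 1 to 3. The groups did not overlap, with replicate 1 lowest, and MCM4 fell with a log2 fold change of -0.48 ± 0.13 and an edgeR adjusted p of 0.0471. MCM5, another ring subunit, stood at 97.8, 168 and 160.4 CPM in the libraries labelled knockout, against 236, 216 and 239 CPM in WT; all 3 libraries labelled knockout were below WT, but the log2 fold change of -0.70 ± 0.22 did not pass (edgeR adjusted p = 0.0699). Without replicate 1 it did, at -0.48. The other ring subunits MCM2, MCM3, MCM6 and MCM7 had log2 fold changes from -0.24 (MCM7) to -0.11 (MCM6), none of which passed.

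The loaders CDC6 and CDT1 and the CDT1 inhibitor GMNN (geminin), which blocks licensing a second time in one cycle, went no common way. CDC6 was at -0.06 ± 0.13 on the log2 scale and CDT1 at 0.14 ± 0.20. Without replicate 1 CDT1 was called higher, at 0.33 (edgeR adjusted p = 4.75e-04). GMNN stood at 102, 96.7 and 111 CPM in the libraries labelled knockout, against 75.4, 70.3 and 81.5 CPM in WT, with each library labelled knockout above each WT library. Its log2 fold change of 0.45 ± 0.13 did not pass (edgeR adjusted p = 0.0653), and did without replicate 1 (0.46).

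Of the genes that activate the helicase, 2 of 6 fell and 0 rose. CDC45, which joins MCM2-7 and GINS in the active helicase, stood at 55.9, 81.9 and 79.8 CPM in replicates 1 to 3 labelled knockout, against 113, 118 and 113 CPM in WT replicates 1 to 3. It fell, with a log2 fold change of -0.66 ± 0.18 and an edgeR adjusted p of 0.0460, with replicate 1 lowest. GINS4, a subunit of the 4-part GINS complex, stood at 35.9, 39.8 and 37.0 CPM in the libraries labelled knockout, against 54.4, 60.3 and 60.04 CPM in WT. Its 3 libraries labelled knockout lay close together, and it fell, at a log2 fold change of -0.63 ± 0.13 and an edgeR adjusted p of 0.0211.

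The other GINS subunits were not called over 6 libraries. GINS1 was at 89.0, 88.3 and 108 CPM in the libraries labelled knockout, against 116, 119.8 and 124 CPM in WT, below WT in each library labelled knockout, with a log2 fold change of -0.34 ± 0.14. GINS2 was at -0.21 ± 0.15 and GINS3 at 0.01 ± 0.15, so the 4 subunits ranged from -0.63 to 0.01. MCM10, which assists helicase activation, was at 0.17 ± 0.12. Of the 11 subunits of the active helicase as a whole (MCM2-7, CDC45 and GINS1-4), 3 fell, 0 rose and 8 did not pass. Of all tested genes 6.5% were called lower and 8.64% higher. A negative log2 fold change was seen for 10 of the 11 subunits and for 8665 of all 17452 tested genes.

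**Figure D3:**
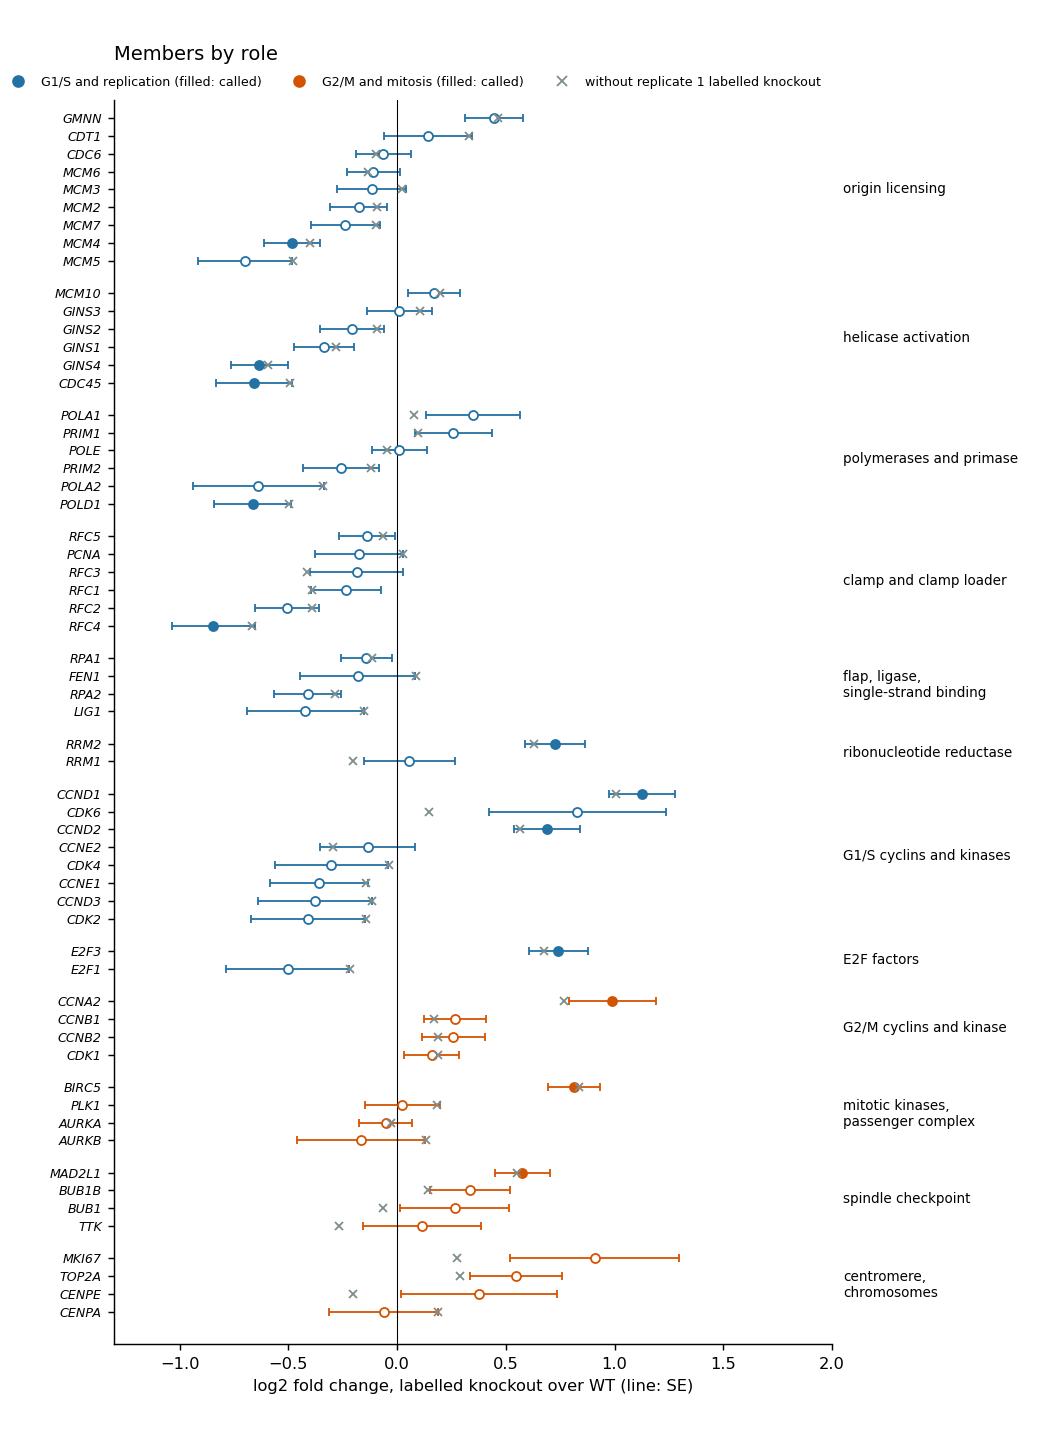
Log2 fold change (labelled knockout over WT, x axis) with its SE for the 59 tested genes in their role groups, G1/S and replication in blue and G2/M and mitosis in orange; filled points passed edgeR adjusted p 0.05 and grey crosses give the value without replicate 1 labelled knockout. The 5 filled points left of 0 are MCM4, CDC45, GINS4, POLD1 and RFC4, and crosses lie nearer to 0 than points for genes such as CDK6, MKI67 and E2F1.

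Of the polymerase and primase genes 1 of 6 fell and 0 rose. POLD1, the catalytic subunit of polymerase delta, which copies mainly the lagging strand, stood at 94.4, 143 and 132 CPM in replicates 1 to 3 labelled knockout, against 197, 193 and 195 CPM in WT replicates 1 to 3. It fell, with a log2 fold change of -0.66 ± 0.18 and an edgeR adjusted p of 0.0457. POLE, the catalytic subunit of the leading-strand polymerase epsilon, was at 389, 359.9 and 327 CPM in the libraries labelled knockout, against 349, 369 and 351 CPM in WT, where the groups overlap, with a log2 fold change of 0.01 ± 0.13.

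The subunits of the priming complex spread both ways without passing over 6 libraries. POLA2, the accessory subunit of polymerase alpha, stood at 7.32, 15.2 and 17.3 CPM in the libraries labelled knockout, against 20.9, 20.4 and 21.0 CPM in WT, lowest in replicate 1 (log2 fold change -0.64 ± 0.30, edgeR adjusted p = 0.184). Without replicate 1 POLA2 was called lower, at -0.34 (edgeR adjusted p = 0.0227). Its catalytic partner POLA1 had the other sign, at 156, 92.6 and 97.7 CPM in the libraries labelled knockout, against 91.3, 90.4 and 90.3 CPM in WT, where replicate 1 labelled knockout was high and replicates 2 and 3 were close to WT (0.35 ± 0.22, edgeR adjusted p = 0.296). The primase subunits PRIM1 and PRIM2 were at 0.26 ± 0.18 and -0.26 ± 0.17 on the log2 scale.

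Of PCNA and the clamp loader RFC1 to RFC5, all 6 had a negative log2 fold change and 1 passed. RFC4, a small subunit of the loader, stood at 43.6, 64.5 and 67.0 CPM in replicates 1 to 3 labelled knockout, against 102, 102 and 111 CPM in WT replicates 1 to 3, and fell, at a log2 fold change of -0.85 ± 0.19 and an edgeR adjusted p of 0.0272, the lowest log2 fold change of the tested members. RFC2 was at 58.0, 74.5 and 72.9 CPM in the libraries labelled knockout, against 102, 96.6 and 93.3 CPM in WT; each library labelled knockout was below WT, with a log2 fold change of -0.51 ± 0.15 and an edgeR adjusted p of 0.0605. RFC1, RFC3 and RFC5 were at -0.23, -0.19 and -0.14, and none passed. PCNA, the clamp itself, was at 156, 244 and 257 CPM in the libraries labelled knockout, against 243, 236 and 263 CPM in WT, low only in replicate 1 (-0.17 ± 0.20). Without replicate 1 RFC1 to RFC4 were called lower, against 21.7% of all tested genes in that fit. PCNA was then at 0.03 (edgeR adjusted p = 0.768).

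Of the genes that finish Okazaki fragments or coat single strands, 0 of 4 were called. Before adjustment edgeR gave 0 higher and 1 lower (p under 0.05), against 3175 and 2621 of all 17452 tested genes. The 1 lower gene of this group was RPA2, a subunit of the single-strand binding protein RPA, at 89.0, 114 and 119 CPM in the libraries labelled knockout, against 146, 134 and 147 CPM in WT, with a log2 fold change of -0.41 ± 0.15 and an edgeR adjusted p of 0.113. DESeq2 called 0 of the 4. LIG1, the ligase that joins the fragments, was at 35.4, 76.4 and 64.9 CPM in the libraries labelled knockout, against 75.1, 83.6 and 78.4 CPM in WT, where replicate 1 was 1.995-fold below the mean of replicates 2 and 3 and those lay near WT (log2 fold change -0.42 ± 0.27). The flap nuclease FEN1 had the same layout, at 59.4, 116 and 120.1 CPM in the libraries labelled knockout, against 108, 107 and 121 CPM in WT. RPA1 was at -0.14 ± 0.12 on the log2 scale.

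Ribonucleotide reductase makes the deoxyribonucleotides for replication. Its small subunit RRM2, whose level follows S phase, stood at 435, 341 and 370.1 CPM in replicates 1 to 3 labelled knockout, against 234, 232 and 227 CPM in WT replicates 1 to 3. The groups did not overlap, and RRM2 rose, with a log2 fold change of 0.73 ± 0.14 and an edgeR adjusted p of 0.0164, a 1.65-fold ratio of means. The large subunit RRM1 stood at 390.5, 229.6 and 256 CPM in the libraries labelled knockout, against 275, 283 and 285 CPM in WT: replicate 1 was above WT and replicates 2 and 3 below it. Its log2 fold change of 0.06 ± 0.21 did not pass over 6 libraries and was -0.20 without replicate 1 (edgeR adjusted p = 0.0134), lower than in WT. With library totals in place of TMM it was -0.060, so no direction is given for RRM1.

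Of the G1/S cyclins and kinases 2 of 8 rose and 0 fell. CCND1 (cyclin D1), the partner of CDK4 and CDK6 in G1, stood at 159, 124 and 125 CPM in replicates 1 to 3 labelled knockout, against 63.7, 62.7 and 60.3 CPM in WT replicates 1 to 3. It rose, with a log2 fold change of 1.13 ± 0.15 and an edgeR adjusted p of 0.00458, the highest log2 fold change of the members, and was the single one still called whichever of the 6 libraries was left out. CCND2 (cyclin D2) stood at 117, 90.3 and 91.6 CPM in the libraries labelled knockout, against 62.6, 58.5 and 64.1 CPM in WT and rose, at 0.69 ± 0.15 on the log2 scale (edgeR adjusted p = 0.0264). CCND3 (cyclin D3), the third of this family, was at 31.1, 63.5 and 58.7 CPM in the libraries labelled knockout, against 70.3, 64.0 and 65.2 CPM in WT (-0.38 ± 0.26), so its sign was opposite to that of the other D cyclins and it did not pass. CCND3 was lowest in replicate 1, with replicates 2 and 3 nearer to WT, and was at -0.11 without replicate 1 (edgeR adjusted p = 0.275).

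The kinases and E cyclins were not called. CDK6 stood at 444, 147 and 166 CPM in the libraries labelled knockout, against 135, 146 and 145 CPM in WT: replicate 1 was 2.84-fold above the mean of replicates 2 and 3, which were near WT (log2 fold change 0.83 ± 0.41, edgeR adjusted p = 0.200, and 0.15 without replicate 1). CDK4 was at 53.2, 109.6 and 98.2 CPM in the libraries labelled knockout, against 106, 109 and 107 CPM in WT. CDK2 was at 26.3, 52.7 and 51.2 CPM in the libraries labelled knockout, against 59.1, 59.7 and 54.1 CPM in WT. Both were low in replicate 1, with replicates 2 and 3 nearer to WT. CCNE1 and CCNE2, the cyclins that activate CDK2 at the entry to S phase, were at -0.36 ± 0.22 and -0.13 ± 0.22 on the log2 scale.

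Of the E2F factors, activators of the G1/S genes, E2F3 rose and E2F1 did not pass. E2F3 stood at 115, 94.6 and 103 CPM in replicates 1 to 3 labelled knockout, against 60.3, 61.7 and 64.7 CPM in WT replicates 1 to 3 and rose, at 0.74 ± 0.14 on the log2 scale (edgeR adjusted p = 0.0142). The annotated span of E2F3 overlaps 4 other genes, 1 of them protein-coding. As the labels give no strand setting, reads in the shared parts cannot be assigned. E2F1 stood at 40.0, 89.4 and 81.0 CPM in the libraries labelled knockout, against 102, 97.6 and 99.4 CPM in WT, with each library labelled knockout below WT and replicate 1 lowest. E2F1 had a log2 fold change of -0.50 ± 0.28 over 6 libraries (edgeR adjusted p = 0.252) and -0.22 without replicate 1 (edgeR adjusted p = 0.0204).

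Of the G2/M cyclins and their kinase, all 4 had each library labelled knockout above each WT library, and 1 of 4 passed. CCNA2 (cyclin A2), which acts with CDK2 in S phase and CDK1 in G2, stood at 212, 133 and 145 CPM in replicates 1 to 3 labelled knockout, against 79.1, 78.9 and 88.2 CPM in WT replicates 1 to 3. It rose, at 0.99 ± 0.20 on the log2 scale (edgeR adjusted p = 0.0195), a 1.99-fold ratio of means, with replicate 1 highest. The annotated span of CCNA2 overlaps that of EXOSC9, which was higher too, at 0.79 ± 0.17, and as the labels give no strand setting, reads at the shared end cannot be assigned. CCNB1 (cyclin B1) was at 283, 222 and 240.1 CPM in the libraries labelled knockout, against 206, 197 and 216 CPM in WT (0.27 ± 0.14, edgeR adjusted p = 0.227). CCNB2 was at 0.26 ± 0.14 on the log2 scale, and CDK1, the kinase that drives entry into mitosis, was at 185, 184 and 204 CPM in the libraries labelled knockout, against 169.8, 161 and 183 CPM in WT (0.16 ± 0.13).

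Of the mitotic kinases and the passenger complex, BIRC5 rose and 3 of 4 did not pass. BIRC5 (survivin), which brings AURKB to centromeres, stood at 412, 434 and 414 CPM in replicates 1 to 3 labelled knockout, against 247, 234 and 235 CPM in WT replicates 1 to 3. The libraries of each group lay close together, replicate 1 included, and BIRC5 rose, at 0.81 ± 0.12 on the log2 scale (edgeR adjusted p = 0.00601) and at 0.83 without replicate 1. AURKB, the kinase of the same complex, stood at 55.5, 127 and 120.0 CPM in the libraries labelled knockout, against 116, 115 and 109 CPM in WT: replicate 1 was 2.22-fold below the mean of replicates 2 and 3. Its log2 fold change was -0.17 ± 0.29, with the opposite sign (0.13) without replicate 1, and passed in neither. The spindle pole kinase AURKA was at -0.05 ± 0.12 and PLK1, a kinase of many mitotic steps, at 0.02 ± 0.17. Without replicate 1 PLK1 was called higher, at 0.18 (edgeR adjusted p = 0.0255).

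Of the spindle checkpoint genes, which hold back anaphase until chromosomes are attached, 1 of 4 rose. MAD2L1, part of the inhibitor of the anaphase-promoting complex, stood at 217, 189 and 217 CPM in replicates 1 to 3 labelled knockout, against 141, 135 and 142 CPM in WT replicates 1 to 3. It rose, at 0.58 ± 0.13 on the log2 scale (edgeR adjusted p = 0.0258), with replicates 1 and 3 at a like level. BUB1B (BUBR1), of the same inhibitor, was at 124, 86.7 and 84.9 CPM in the libraries labelled knockout, against 77.4, 83.2 and 73.8 CPM in WT (0.34 ± 0.18, edgeR adjusted p = 0.239), above WT in each library labelled knockout. The kinase BUB1 was at 286, 146 and 173 CPM in the libraries labelled knockout, against 175, 162 and 166 CPM in WT, high in replicate 1 alone. TTK, the kinase that starts the checkpoint, was at 151, 73.3 and 82.7 CPM in the libraries labelled knockout, against 93.2, 93.8 and 95.8 CPM in WT, high in replicate 1 and below WT in replicates 2 and 3.

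Of the centromere and chromosome genes 0 of 4 were called. Before adjustment edgeR gave 1 higher (TOP2A) and 0 lower (p under 0.05), against 3175 and 2621 of all 17452 tested genes. DESeq2 called 0 of the 4. MKI67 (Ki-67), the coat protein of mitotic chromosomes used as a marker of cycling cells, stood at 948, 366 and 341 CPM in the libraries labelled knockout, against 274, 328 and 279.6 CPM in WT. Replicate 1 was 2.68-fold above the mean of replicates 2 and 3, which were also above WT, and the log2 fold change of 0.91 ± 0.39 did not pass (edgeR adjusted p = 0.152; 0.27 without replicate 1, edgeR adjusted p = 0.00254). TOP2A (topoisomerase II alpha), which untangles sister DNA, had the same layout, at 1275, 752 and 834 CPM in the libraries labelled knockout, against 654, 664 and 639 CPM in WT (0.55 ± 0.21, edgeR adjusted p = 0.1198; 0.29 without replicate 1). The kinetochore motor CENPE was at 341, 128 and 145 CPM in the libraries labelled knockout, against 151, 159 and 162 CPM in WT, high in replicate 1 and below WT in replicates 2 and 3. The centromeric histone CENPA was at -0.06 ± 0.25 on the log2 scale, and at 0.19 without replicate 1.

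Replicate 1 labelled knockout set the spread of many members. The coefficient of variation of a member over the 3 libraries had a median of 19.4% in the libraries labelled knockout and 3.85% in WT. Replicate 1 was over 1.5-fold above the mean of replicates 2 and 3 for 10 members and over 1.5-fold below it for 14, and lay on the other side of the WT mean for 17 of 59. The 10 high members (CDK6, MKI67, CENPE, TTK, BUB1, RFC3, POLA1, TOP2A, RRM1 and CCNA2) had a median annotated gene span of 42.4 kb, and the 14 low ones (among them AURKB, POLA2, E2F1, FEN1, LIG1, CDK2 and CDK4) of 11.3 kb. Across the 59 members the log2 ratio of replicate 1 to replicates 2 and 3 correlated with log2 span at Pearson's r of 0.43 (Spearman's rho 0.41), and across 14983 tested genes at 0.43 (0.47). These are correlations across genes of the same libraries, which are not independent replicates, and the part of gene span in the results was not tested. Among the 12 called members, 10 lay within 1.5-fold between replicate 1 and the others, CCNA2 was 1.52-fold above and RFC4 1.51-fold below. Of all 59 tested members 35 lay within 1.5-fold. A call in these same libraries favours members with a small spread. The 10 of 12 therefore cannot show how far the calls depend on replicate 1.

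**Figure D4:**
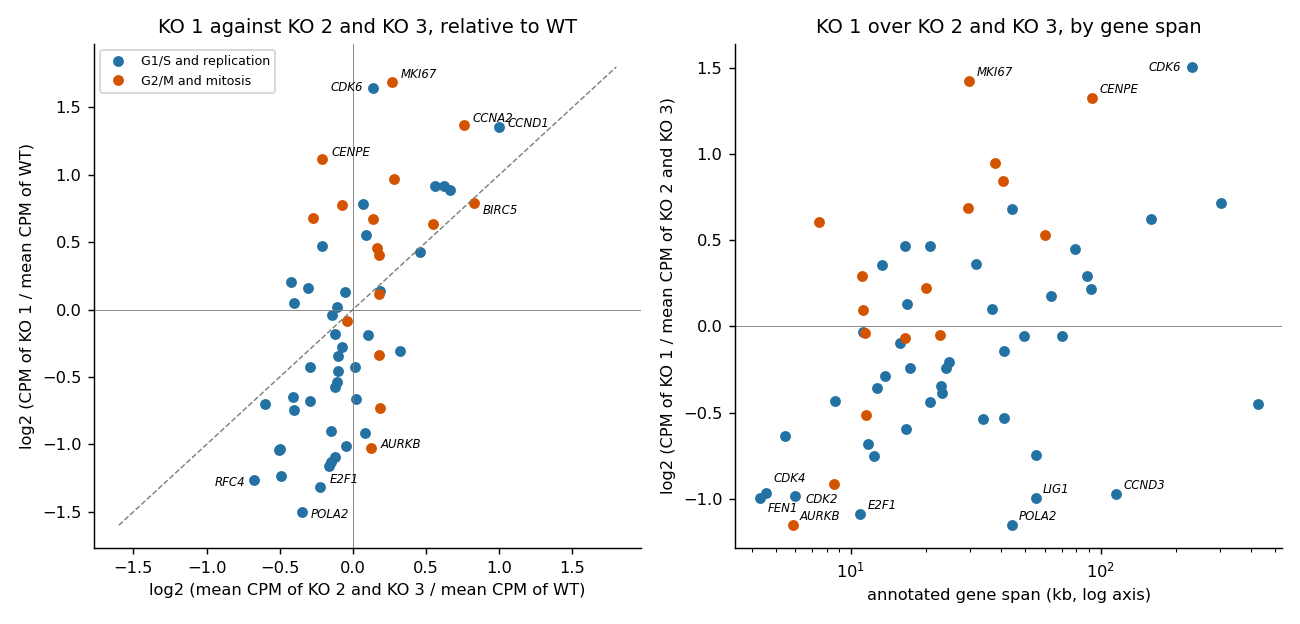
Left, log2 ratio to the WT mean in replicate 1 labelled knockout (y axis) against that in the mean of replicates 2 and 3 (x axis), each point 1 of 59 genes, with the line of equality dashed. Right, log2 ratio of replicate 1 to the mean of replicates 2 and 3 against annotated gene span in kb (log axis): CDK6, MKI67 and CENPE lie highest and POLA2 and AURKB lowest.

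Other genes of the pathway were 122 in 4 lists, chosen by function with earlier results of these data known. All were tested: 6 rose, 4 fell and 112 did not pass, at a median log2 fold change of 0.087. Of the 122, 8.20% were called, against 15.1% of all tested genes, and the 4 lists ranged from 6.25% to 12.5%. Of 39 further replication genes 2 rose and 1 fell. The origin recognition subunit ORC4 was at 71.2 ± 30.7 CPM in the libraries labelled knockout and 33.4 ± 1.98 CPM in WT (1.09 ± 0.29, edgeR adjusted p = 0.0460), and CDC25A, the phosphatase that activates CDK2, at 195 ± 5.28 CPM in the libraries labelled knockout and 137 ± 1.48 CPM in WT (0.51 ± 0.12, edgeR adjusted p = 0.0291). CDC7, the kinase that phosphorylates the MCM ring to start origins, fell, at 132 ± 0.901 CPM in the libraries labelled knockout and 203 ± 2.41 CPM in WT (-0.62 ± 0.12, edgeR adjusted p = 0.0152).

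Of 16 pocket proteins, E2F partners and G2/M activators, the repressor E2F8 alone was called, higher, at 23.1 ± 1.33 CPM in the libraries labelled knockout and 14.9 ± 0.336 CPM in WT (0.63 ± 0.14, edgeR adjusted p = 0.0269). Of 8 genes listed as CDK inhibitors 1 rose and 0 fell. It was CDKN3, a phosphatase that acts on CDKs and not one of the inhibitor proteins, at 43.2 ± 7.03 CPM in the libraries labelled knockout and 28.0 ± 0.0431 CPM in WT (0.62 ± 0.16, edgeR adjusted p = 0.0403). CDKN1A (p21) was at 34.6, 80.8 and 74.8 CPM in the libraries labelled knockout, against 90.3, 87.1 and 94.1 CPM in WT. Each library labelled knockout was below WT, with replicate 1 lowest (-0.51 ± 0.30, edgeR adjusted p = 0.270). Without replicate 1 CDKN1A was called lower, at -0.21 (edgeR adjusted p = 0.0272). In that fit 3 of the 8 genes were called higher and 2 lower, against 22.3% and 21.7% of all tested genes.

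Of 59 further mitotic genes 2 rose and 3 fell, so 8.47% were called, against 15.1% of all tested genes. CKS2, a CDK subunit, was at 122 ± 11.9 CPM in the libraries labelled knockout and 73.4 ± 1.99 CPM in WT (0.73 ± 0.13, edgeR adjusted p = 0.0139), and the centromere protein gene CENPU at 79.1 ± 35.4 CPM in the libraries labelled knockout and 35.1 ± 2.13 CPM in WT (1.17 ± 0.30, edgeR adjusted p = 0.0395). Those that fell were KIF2C, a microtubule-depolymerising kinesin, at 87.7 ± 3.71 CPM in the libraries labelled knockout and 131 ± 2.18 CPM in WT (-0.58 ± 0.12, edgeR adjusted p = 0.0216), and CDCA8 and CDCA3. CDCA8 (borealin), which sits in one complex with BIRC5 and AURKB, was at 66.6 ± 10.3 CPM in the libraries labelled knockout and 108 ± 0.784 CPM in WT (-0.70 ± 0.15, edgeR adjusted p = 0.0260). CDCA3 was at 32.5 ± 7.23 CPM in the libraries labelled knockout and 59.0 ± 1.65 CPM in WT (-0.86 ± 0.19, edgeR adjusted p = 0.0263). The median log2 fold change of this further list was 0.085, nearer to that of all tested genes than the 0.27 of the mitotic members.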

How the data were processed

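Poly(A)-selected RNA of 3 libraries labelled knockout and 3 labelled WT was analysed. The deposited tables hold whole-number counts per Ensembl gene, not normalised. The submitters' processing notes name HISAT2 2.2.1, HTSeq 0.12.4 and GRCh38; the counting options and strand were not given in the sources used here. Reads in no feature (8.75% to 15.9% of counted reads) and ambiguous reads (9.74% to 12.5%) were left out. The mitochondrial coverage files hold no nuclear gene and were not used here. Symbols came from an Ensembl name table, and coordinates and promoters from RefSeq (GRCh38.p14). Of the 60 members 27 overlap another annotated gene, 10 of them a protein-coding one. Among the called members GINS4, RRM2, CCND2, E2F3 and CCNA2 overlap another annotated gene, E2F3 and CCNA2 a protein-coding one. Pseudogenes named after a called member held at most 0.357% as many counts as that member.

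The tests used edgeR 4.0.16 under R 4.3.3 (TMM, filterByExpr defaults, quasi-likelihood F test on the group alone, Benjamini-Hochberg at 0.05 over 17452 genes); the SE of a log2 fold change is its size over the root of F. The method was tested on simulated data. Named with values in each library were the called members and the 2 members per role group with the largest absolute log2 fold change; others were named for their role or after their values were seen. The members and lists were chosen with earlier results of these data known. Alternatives were DESeq2 1.42.0, limma-voom (limma 3.58.1), other scalings and filters, the replicate number as a block, and leaving out single libraries. No pair of libraries agreed within counting noise (chi-square per degree of freedom at least 2.55). One further cell line marker is not reported here.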

Additional observations from a re-analysis of the deposited data

How the results depend on the processing

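The 12 called members kept their direction under each of the 14 other settings run. Picked by calls in these same libraries, with groups that do not overlap, they could hardly change direction when 1 library was left out. They kept their call in DESeq2, limma-voom, DESeq2 size factors, the fit without mitochondrial genes, the minimum mean count of 50 and the fit without replicate 1 labelled knockout. With no low count filter 10 kept it, with library totals in place of TMM 8 (1 replication gene was then called lower, against 5), without replicate 2 labelled knockout 11, without replicate 3 labelled knockout 3, and without WT replicates 1, 2 or 3 only 1, CCND1. On leaving out a library the calls over all genes ranged from 644 to 7975, those of replication genes from 1 to 7 higher and from 0 to 14 lower, and those of mitotic genes from 0 to 8 higher and from 0 to 2 lower; the high ends came without replicate 1 labelled knockout, and the low ends for replication genes without replicate 3 labelled knockout or any 1 WT library. C17orf80 ranged from 0.64 to 0.86 on the log2 scale (edgeR adjusted p up to 0.127, without WT replicate 1). RRM1 ranged from -0.20 to 0.21 and was -0.060 with library totals, and AURKB ranged from -0.36 to 0.13. With CCNA2 counted among the replication genes, 5 of these and 2 mitotic genes rose. The replicate numbers did not pair the libraries: deviations from the group means correlated at -0.058, -0.029 and 0.0022 for numbers 1 to 3. With the replicate block 969 genes were called (610 higher, 359 lower), of the members CCND1 and BIRC5 only (1 replication gene and 1 mitotic gene higher, 0 replication genes lower), and C17orf80 was at 0.77 (edgeR adjusted p = 0.0829). The fits without a library or with the block have fewer samples or degrees of freedom, and the cause of these changes was not tested.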
